A study of Mus musculus with 42 samples.

Results

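The comparison set 5 arrays of striatum from vehicle-treated mice labelled as PDE10A knockouts (KO) against 5 arrays of striatum from vehicle-treated wild-type (WT) mice. The members were chosen by array title, with no measured value used, and are 10 of the 42 arrays of the study. All mice were labelled C57BL6, and the striatum, with the hippocampus, had been snap-frozen and microdissected before total RNA was hybridised to Affymetrix arrays. The remaining arrays hold hippocampus and tissue from mice given a PDE10 inhibitor, of which the hippocampus of 5 KO and 6 WT vehicle mice is set beside the striatum below. The groups thus shared strain, tissue and vehicle, and differed in the labelled genotype. The sources used here do not give the part of the gene removed, the animals' age and sex, or the time from dosing to dissection. Whether each array of a group stands for an animal of its own is not said in the labels either, so the p-values describe the spread over these samples, part of which may be technical.

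PDE10A is a phosphodiesterase that breaks down cAMP and cGMP, the second messengers through which dopamine receptors act on striatal projection neurons. It is abundant in both classes of these neurons: the direct pathway cells, which carry the D1-type dopamine receptor and make dynorphin and substance P, and the indirect pathway cells, which carry the D2-type receptor and make enkephalin. In these cells cAMP activates protein kinase A, which reaches gene expression through the transcription factor CREB and its relatives and through the mitogen-activated protein kinase ERK.

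The dissections carried the defining markers of striatum. Drd1, the D1 dopamine receptor, lay between 11.26 and 11.83 on the log2 signal scale over the 10 striatal arrays, against 6.11 to 7.81 over the 11 vehicle hippocampal arrays. Drd2 lay between 10.43 and 11.14 in striatum, against 5.06 to 6.11 in hippocampus, and Ppp1r1b (DARPP-32) between 12.18 and 12.86, against 7.87 to 8.79. Some tissue from outside the striatum was also present in uneven amounts. Neurod6, a marker of cortical and hippocampal glutamatergic neurons, ran from 3.78 to 7.96 over the striatal arrays, and Ttr, the transthyretin gene of the choroid plexus, from 10.45 to 14.71. In bulk tissue, fewer cells of a type and less RNA per cell cannot be told apart.

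Several arrays stood apart. KO 25 went against its label on chromosome 17, the chromosome of Pde10a: a score from 15 genes of that chromosome, chosen in hippocampus, was -0.18 in KO 25, 0.12 to 0.29 in the other KO vehicle striatum arrays, and -0.33 to -0.22 in the WT vehicle striatum arrays. Of the WT inhibitor striatum arrays, which enter the fit through the shared spread, 3 lay at 0.07 to 0.15. In the control probe sets for Gapdh, WT 4 and KO 29 lay highest in their groups. By the outlier criterion used below, WT 4 was an outlier there, while KO 29 was not, nor was KO 25 in the chromosome 17 score. The signal at the 3' end of this transcript minus that at its 5' end, which grows as RNA is shortened, was 0.60 in KO 29, with 0.10 to 0.30 in the other KO arrays, and 1.05 in WT 4, with 0.18 to 0.28 in the other WT arrays. The difference between the groups in it did not pass an exact two-sided permutation test (KO 0.26 ± 0.20, WT 0.39 ± 0.37, SD, n = 5 each; p = 0.556, where 252 splits allow a smallest p of 0.0079). All statements on KO 25 are on the array so labelled, and counts and lists are also given without it and without the high-Gapdh arrays. In a principal component analysis of the 10 arrays, WT 4 lay at the end of the first component (30.2% of the variance) and KO 29 at the end of the second (18.0%).

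**Figure D1:**
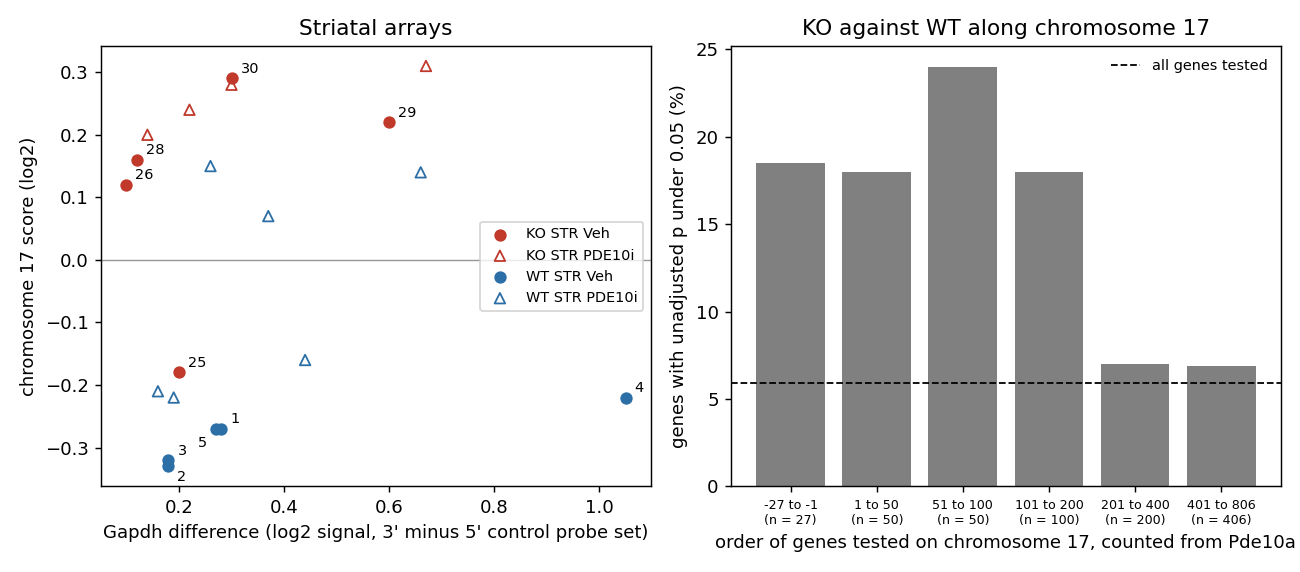
Left, each striatal array by its Gapdh difference (log2 signal, horizontal) and chromosome 17 score (log2, vertical), with vehicle arrays filled and numbered; KO 25 lies at -0.18, beside the WT vehicle arrays. Right, the share of chromosome 17 genes with an unadjusted p under 0.05 in blocks of gene order from Pde10a; the 4 blocks nearest to it, with 18.0% to 24.0%, stand above the 5.94% of all genes tested.

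Pde10a itself was not lower in the KO arrays. Its log2 signal was 12.37, 12.14, 12.29, 12.71 and 12.25 in KO arrays 25, 26, 28, 29 and 30, against 12.19, 12.15, 12.56, 12.64 and 12.06 in WT arrays 1 to 5. The groups overlapped throughout (difference KO minus WT 0.03 ± 0.16, SE; adjusted p = 0.997). The other 4 probe sets of the gene gave differences of 0.20, 0.32, -0.33 and 0.40, none past the threshold. In the probe set with -0.33, KO 25 read 9.35 and the other KO arrays 8.41 to 8.90, against 8.88 to 9.44 in WT arrays. Without KO 25 its difference was -0.47 ± 0.20 (adjusted p = 0.726 over all probe sets), and those of the other 4 were 0.03 to 0.36. Since the removed part is unknown and these probe sets may lie elsewhere in the transcript, the values do not check the labels.

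Of 18193 genes tested with limma, 25 (0.137%) differed between KO and WT vehicle striatum at an adjusted p under 0.05: 11 rose (0.0605%) and 14 fell (0.077%). All differences below are log2, KO minus WT, with SE and the Benjamini-Hochberg adjusted p over the 18193 genes, and values by array follow the order KO 25, 26, 28, 29, 30 and WT 1 to 5. The changes were modest. The folds of the 25 genes ran from 1.30 to 2.61, while the SD of the difference over all genes was 0.134. In each of the 25 the KO and WT arrays did not overlap, as in 225 (1.24%) of all genes, but the gap between the nearest arrays of the groups was narrow, from 0.03 to 0.55. The array labelled KO 25 was the KO array nearest to WT in 12 of the 25. For the 13 genes with several probe sets, all 20 other probe sets had the same sign, and 3 of those passed the threshold themselves. Others differed little, such as those of H2-DMa (-0.09) and Trim17 (0.07) and 1 of Tnnt2 (-0.09). With adjustment over all probe sets, the probe sets used for Cpne2, Fst, H2-DMa, Tnnt2, Trim17 and Zfpm1 missed the threshold (limma adjusted p 0.0593 to 0.0787).

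**Figure D2:**
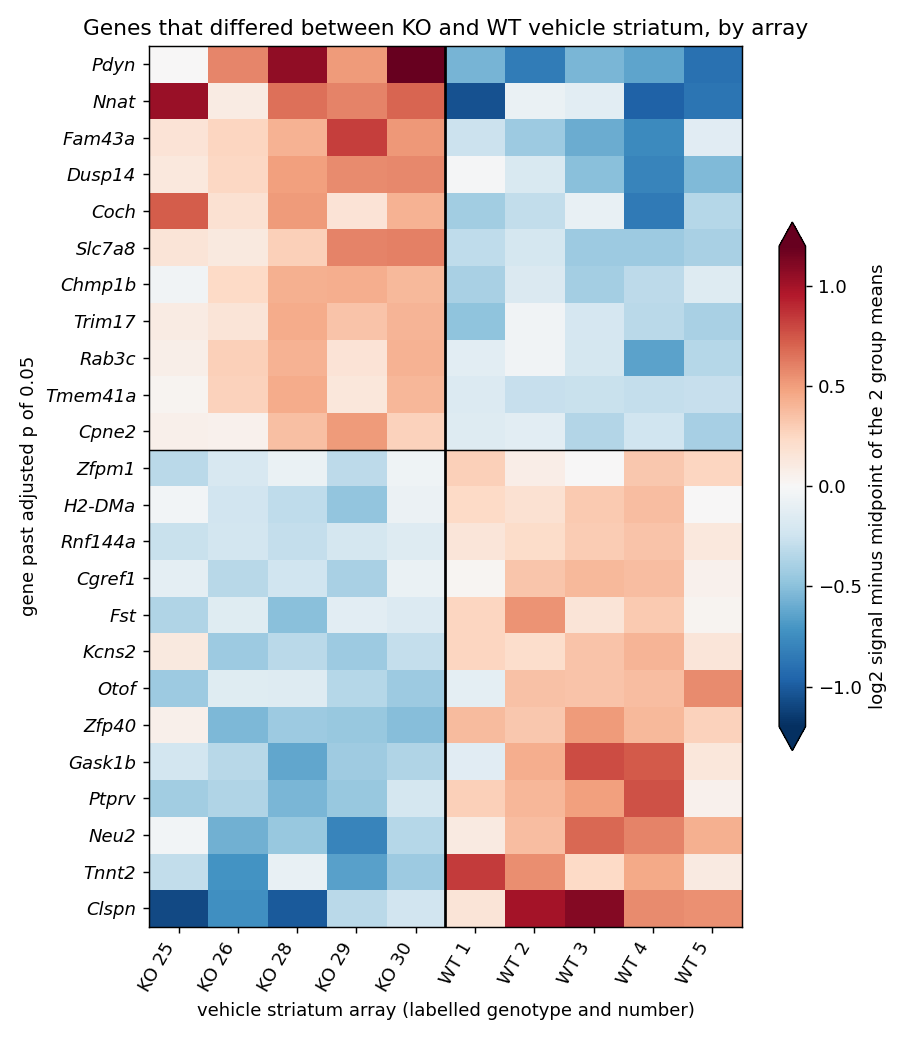
Log2 signal of the 24 named genes past the threshold in each vehicle striatum array (KO columns left, WT columns right), minus the midpoint of the 2 group means, ordered by the KO minus WT difference. The 11 rises stand above the line and the 13 named falls below it; the column of KO 25 is pale in many rows, where that array is the KO array nearest to WT.

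**Figure D3:**
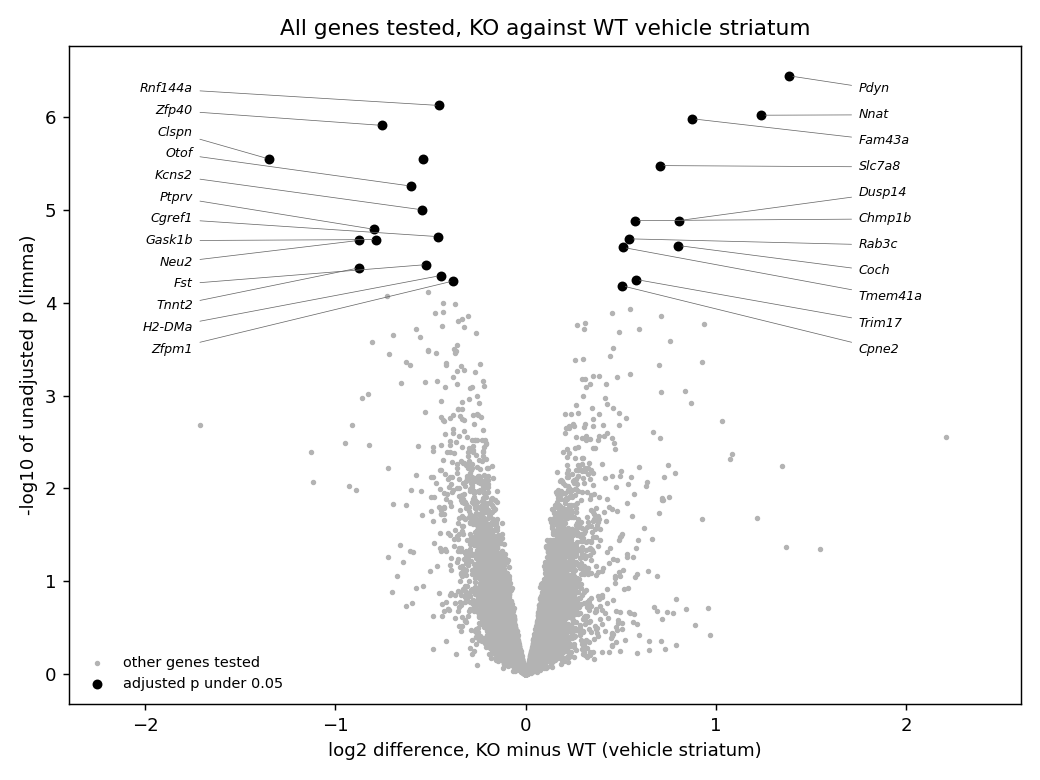
Each of the 18193 genes by its log2 difference, KO minus WT (horizontal), and the -log10 of its unadjusted limma p (vertical); the 25 black points passed an adjusted p of 0.05, and 24 are named. Points far to the right and left without a name differed by more on average but varied more between arrays.

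The largest change among the called genes was in Pdyn, the gene for prodynorphin, from which the dynorphin opioid peptides of direct pathway neurons are cut. Its log2 signal was 8.73, 9.31, 9.79, 9.24 and 10.02 in the KO arrays, against 8.17, 7.89, 8.18, 8.09 and 7.83 in the WT arrays. All KO arrays lay above all WT arrays, KO 25 as the lowest of them, and the KO mean was 2.61-fold higher (1.39 ± 0.19, adjusted p = 0.00451). Pdyn kept its call when any 1 of the 10 arrays was left out (1.24 to 1.56).

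Nnat, which encodes neuronatin, a small membrane protein of the endoplasmic reticulum expressed from the paternal allele, was 2.36-fold higher (1.24 ± 0.18, adjusted p = 0.00451). It read 11.38, 10.44, 11.00, 10.94 and 11.04 in KO arrays, against 9.30, 10.26, 10.22, 9.37 and 9.47 in WT arrays. Here the array labelled KO 25 was the highest of all, and the gap between the groups lay between KO 26 and WT 2. Nnat was also positive in hippocampus (0.53 ± 0.17), where its adjusted p of 1.0 missed the threshold.

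Upstream bases are shown for Pdyn, Nnat and Clspn, the called genes with the largest changes, for Slc7a8, whose call held with any 1 array left out, and for Cpne2, the one gene that rose whose promoter held a short cAMP-response element. They are the 250 bases before the start in RefSeq's annotation of build GRCm38.p6, read 5′ to 3′ on the gene's strand. Capitals mark the GC box GGGCGG, the TATA box TATAAA or the short cAMP-response element TGACG, on either strand. Pdyn lies at chr2:129699939-129700188 (minus strand, first of its start sites), Nnat at chr2:157559828-157560077 (plus), Slc7a8 at chr14:54781887-54782136 (minus), Cpne2 at chr8:94532778-94533027 (plus) and Clspn, the gene that fell most, at chr4:126556730-126556979 (plus).
Pdyn: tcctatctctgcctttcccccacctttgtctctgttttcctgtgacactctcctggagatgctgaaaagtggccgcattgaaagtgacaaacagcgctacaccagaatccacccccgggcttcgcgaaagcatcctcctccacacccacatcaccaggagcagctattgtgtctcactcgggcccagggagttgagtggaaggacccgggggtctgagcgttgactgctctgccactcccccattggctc
Nnat: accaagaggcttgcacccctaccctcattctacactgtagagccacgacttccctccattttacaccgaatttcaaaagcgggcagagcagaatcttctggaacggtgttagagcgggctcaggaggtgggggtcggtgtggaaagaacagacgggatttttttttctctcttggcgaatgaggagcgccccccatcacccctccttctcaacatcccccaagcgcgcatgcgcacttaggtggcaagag
Slc7a8: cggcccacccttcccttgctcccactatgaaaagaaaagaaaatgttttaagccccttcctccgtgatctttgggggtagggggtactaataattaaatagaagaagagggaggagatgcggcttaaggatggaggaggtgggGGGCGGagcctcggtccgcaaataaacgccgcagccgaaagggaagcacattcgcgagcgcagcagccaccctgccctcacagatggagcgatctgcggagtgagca
Cpne2: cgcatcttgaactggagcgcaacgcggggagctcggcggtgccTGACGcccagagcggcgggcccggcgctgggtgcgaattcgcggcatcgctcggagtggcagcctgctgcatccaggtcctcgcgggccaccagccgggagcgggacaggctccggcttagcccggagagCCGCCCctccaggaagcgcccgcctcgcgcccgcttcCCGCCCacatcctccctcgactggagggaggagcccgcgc
Clspn: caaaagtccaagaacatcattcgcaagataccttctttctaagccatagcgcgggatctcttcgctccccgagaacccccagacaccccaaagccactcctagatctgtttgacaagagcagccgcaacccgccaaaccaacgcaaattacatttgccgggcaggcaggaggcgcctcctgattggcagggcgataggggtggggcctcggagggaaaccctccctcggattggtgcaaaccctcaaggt
Pdyn, Nnat and Clspn held none of these letters in this window, Slc7a8 held 1 GC box, and Cpne2 held 2 GC boxes and 1 short element. Promoters were given for 9 of the 11 genes that rose and 8 of those that fell. The full cAMP-response element TGACGTCA, which contains the short element, was in none of their 10 and 13 promoters, against 1.5% of 32851 promoters in the same 250-base window. The short element was in 1 of 10 (Cpne2) and 1 of 13 (Cgref1), against 17.8% of all. GC boxes were in 6 of the 10 promoters of genes that rose and 3 of the 13 of genes that fell, against 32.7% of all. The AP-1 site TGANTCA, searched on both strands, was in none of the 10, against 6.7% of all. It was in 5 of the 13, from 4 of the 8 genes (Cgref1, Gask1b, H2-DMa and Neu2). Start sites of 1 gene are not independent, and no motif count was tested.

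Slc7a8, a transporter of large neutral amino acids that works with the heavy chain Slc3a2, read 8.22, 8.18, 8.35, 8.66 and 8.67 in KO arrays, against 7.76, 7.85, 7.63, 7.63 and 7.67 in WT arrays. The WT values lay within a narrow band and every KO value above it (0.71 ± 0.11, adjusted p = 0.00764), and the call held with any 1 array left out. Rab3c, a small GTPase of synaptic vesicles, was 11.63 ± 0.16 in KO and 11.08 ± 0.23 in WT (SD, n = 5 each; 0.55 ± 0.10, adjusted p = 0.0229). Chmp1b, a subunit of the ESCRT-III complex that cuts membranes, averaged 8.33 ± 0.21 in KO and 7.76 ± 0.12 in WT arrays (0.58 ± 0.10, adjusted p = 0.0199). Cpne2, a copine that binds phospholipid in the presence of calcium, rose by the smallest amount of the 11 (0.50 ± 0.10, adjusted p = 0.0479), and Tmem41a, a membrane protein, by 0.51 ± 0.09 (adjusted p = 0.0244).

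The other rises were of varied function. Dusp14, a dual-specificity phosphatase that acts on mitogen-activated protein kinases, read 9.42, 9.54, 9.78, 9.86 and 9.87 in KO arrays, against 9.28, 9.11, 8.79, 8.50 and 8.76 in WT arrays. Only 0.14 separated KO 25 from WT 1, while the group means differed by 0.81 ± 0.14 (adjusted p = 0.0199). Fam43a rose by 0.88 ± 0.13 (7.92 ± 0.26 in KO, 7.05 ± 0.25 in WT, SD, n = 5 each; adjusted p = 0.00451). Coch, the gene of the matrix protein cochlin, was 10.26 ± 0.24 in KO and 9.46 ± 0.28 in WT arrays (0.80 ± 0.15, adjusted p = 0.0244), with KO 25 its highest array. Trim17, a ubiquitin ligase, rose by 0.58 ± 0.11 (adjusted p = 0.0444).

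Among the falls, Clspn changed most. It encodes claspin, an adaptor of the DNA replication checkpoint, and read 5.57, 5.91, 5.64, 6.33 and 6.42 in KO arrays, against 6.80, 7.65, 7.75, 7.22 and 7.20 in WT arrays. The KO mean was 2.55-fold lower (-1.35 ± 0.21, adjusted p = 0.00741), although the other probe set of the gene differed by -0.08 ± 0.10 (adjusted p = 0.992 over all probe sets).

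Rnf144a, a RING-type ubiquitin ligase, had the smallest SE of the 25. It read 8.73, 8.78, 8.71, 8.79 and 8.84 in KO arrays, against 9.14, 9.22, 9.30, 9.34 and 9.12 in WT arrays (-0.45 ± 0.06, adjusted p = 0.00451). The lowest WT array lay above the highest KO array, and KO 25 lay within the range of the other KO arrays. The 2 other probe sets of Rnf144a differed by -0.05 and -0.19.

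Kcns2, a modulatory subunit of voltage-gated potassium channels, read 8.97, 8.42, 8.53, 8.42 and 8.57 in KO arrays, against 9.11, 9.07, 9.20, 9.26 and 9.0 in WT arrays. KO 25 stood apart from the other KO arrays and just below WT 5 (-0.55 ± 0.09, adjusted p = 0.0183). Without KO 25 the difference was -0.64 (adjusted p = 0.000496). Otof, whose product otoferlin is a calcium sensor for vesicle fusion in inner hair cells, fell by 0.60 on the log2 scale (5.83 ± 0.14 in KO, 6.44 ± 0.25 in WT, SD, n = 5 each; adjusted p = 0.0113). Ptprv, a receptor-type tyrosine phosphatase, averaged 6.80 ± 0.12 in KO and 7.60 ± 0.26 in WT arrays (-0.80 ± 0.14, adjusted p = 0.0228). Gask1b, a Golgi-associated kinase family member, averaged 4.81 ± 0.15 in KO and 5.60 ± 0.39 in WT arrays (-0.79 ± 0.14, adjusted p = 0.0229), and its other probe set, at -1.17 ± 0.13, passed as well (adjusted p = 0.00129 over all probe sets).

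Fst encodes follistatin, a secreted protein that binds and neutralises activin. It read 5.56, 5.77, 5.42, 5.79 and 5.75 in KO arrays, against 6.18, 6.46, 6.07, 6.23 and 5.95 in WT arrays, with no overlap (-0.52 ± 0.10, adjusted p = 0.0355). Its second probe set gave -0.70 ± 0.13 (adjusted p = 0.0372 over all probe sets). Tnnt2, troponin T of heart muscle, fell by 0.88 on the log2 scale (adjusted p = 0.0367), Neu2, a cytosolic sialidase, by 0.87 (adjusted p = 0.0229), Cgref1, a secreted calcium-binding protein, by 0.46 (adjusted p = 0.0229), and Zfpm1, a cofactor of GATA transcription factors, by 0.38 (adjusted p = 0.0444). The remaining fall with a predicted gene name was counted and not named.

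Both called genes of chromosome 17 fell. Zfp40, a zinc finger gene, read 7.49, 6.89, 6.99, 6.97 and 6.92 in KO arrays, against 7.81, 7.75, 7.94, 7.82 and 7.71 in WT arrays. KO 25 lay between the other KO arrays and the WT arrays (-0.76 ± 0.11, adjusted p = 0.00451; without KO 25 -0.86, adjusted p = 0.00019). H2-DMa, part of the chaperone that loads peptides onto class II histocompatibility molecules, was lower by a smaller amount (-0.45 ± 0.09, adjusted p = 0.0424). Along the chromosome, 18.5% of the 27 tested genes before Pde10a and 18.0%, 24.0% and 18.0% of those at positions 1 to 50, 51 to 100 and 101 to 200 after it had an unadjusted p under 0.05, against 7.0% and 6.9% further on and 5.94% of all genes. Zfp40 lies at position 73, in the block with 24.0%, and H2-DMa at position 354, in the block with 7.0%. The part of chromosomal position in the 2 calls was not tested.

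Just outside the threshold were Col6a2, a chain of collagen VI (-0.51, adjusted p = 0.0533), Syt9, a synaptotagmin (-0.73, adjusted p = 0.0569), Ccdc80 (-0.44, adjusted p = 0.0655), Taf1d (-0.37, adjusted p = 0.0655), Dgat2, an enzyme of triglyceride synthesis (0.55, adjusted p = 0.0717), and 1 clone-named gene. Just inside it were Cpne2 (adjusted p = 0.0479), Zfpm1 and Trim17 (both 0.0444).

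The pathway of the missing enzyme was described over gene lists, by counts and medians. Over all genes tested, 49.4% had a positive difference, and the median was -0.002. Of 17 other phosphodiesterases none passed the threshold, 13 were positive, and the median was 0.029. Pde1c, a phosphodiesterase activated by calcium and calmodulin, came nearest: it read 9.03, 8.14, 8.55, 8.33 and 8.84 in KO arrays, against 7.99, 7.80, 7.97, 8.10 and 7.25 in WT arrays. The groups did not overlap, but the adjusted p was 0.0934 (0.76 ± 0.17). Of the 15 adenylyl and guanylyl cyclases 9 were positive (median 0.031, range -0.16 to 0.19), and of the 16 subunits of protein kinases A and G and of G proteins 10 were (median 0.053, range -0.25 to 0.29). No member of either list passed the threshold or an unadjusted p of 0.05. Of 11 genes for phosphatase control downstream of dopamine, 5 were positive and none passed (Ppp1r2, a phosphatase 1 inhibitor, 0.32 ± 0.13, adjusted p = 0.74), and of 16 RGS proteins, which switch off G proteins, 12 were positive and none passed.

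Early response and CREB-regulated genes, which cAMP and calcium switch on within minutes to hours, were mostly higher in KO, but none of the 32 passed. Positive differences were found in 25, with a median of 0.196, and 7 had an unadjusted p under 0.05 in that direction, against 2.85% of all genes, while none had one in the other (3.09% of all genes). Crem, a CREB relative, read 6.45, 7.50, 7.61, 7.22 and 7.53 in KO arrays, against 6.48, 6.79, 6.06, 5.74 and 6.59 in WT arrays (0.93 ± 0.22, adjusted p = 0.122). The array labelled KO 25 lay among the WT arrays and the other KO arrays above them. Fosl2, a Fos family member, was at 6.60 in KO 25 and 7.38 to 8.18 in the other KO arrays, against 5.82 to 7.47 in WT (1.03 ± 0.29, adjusted p = 0.258). Per1, a clock gene with a cAMP-responsive promoter, did not overlap between the groups (KO 9.37 to 9.93, WT 8.84 to 9.34), but its adjusted p was 0.143 (0.55 ± 0.14). Dusp1, a phosphatase of mitogen-activated protein kinases, gave 0.63 ± 0.22 (adjusted p = 0.507). Egr3, another member of the list, ran the other way (-0.24 ± 0.12).

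The mean level of this list overlapped between the groups. It was 7.36 in the array labelled KO 25 and 7.88 to 8.12 in the other KO arrays, against 7.38 to 7.83 in WT arrays, with WT 3 and WT 4 low. Without KO 25, 26 of 32 members were positive, the median was 0.284, and Crem (1.13, adjusted p = 0.0107) and Fosl2 (1.28, adjusted p = 0.0302) rose. Without the high-Gapdh arrays 20 were positive, and the median was 0.129.

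**Figure D4:**
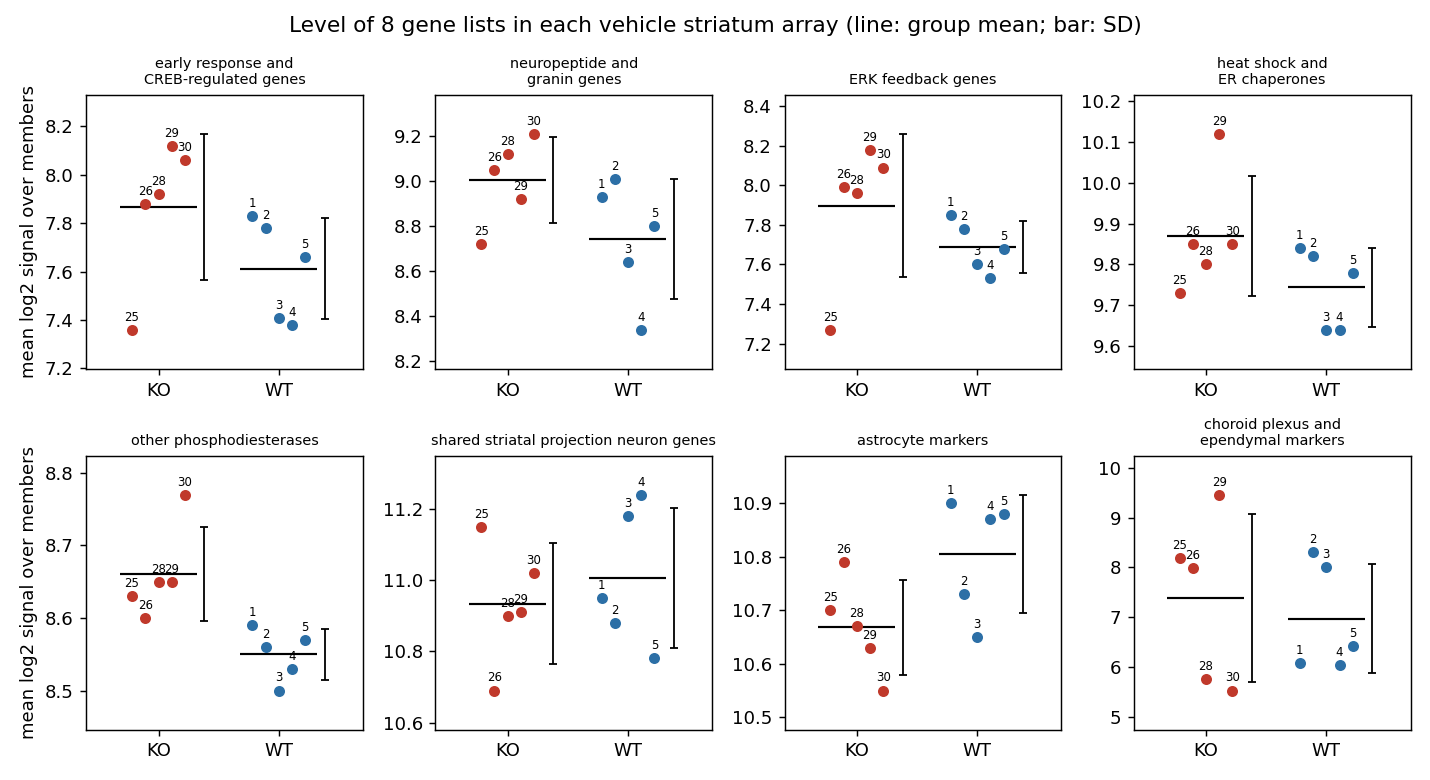
Mean log2 signal over the members of 8 gene lists (vertical, each panel with its own scale that does not start at 0) in each KO (left) and WT (right) vehicle striatum array, numbered as in the titles; lines are group means and bars SD over 5 arrays. KO 25 is the lowest KO array for early response, ERK feedback, neuropeptide and heat shock genes, and choroid plexus levels range from 5.53 to 9.46 within the KO arrays.

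Feedback regulators of ERK were low in the same KO array. Of 15, 11 were positive (median 0.123) and Dusp14 rose. The list's level was 7.27 in KO 25 and 7.96 to 8.18 in the other KO arrays, against 7.53 to 7.85 in WT arrays. Dusp6, for example, read 7.92 in KO 25 and 9.13 to 9.41 in the other KO arrays, against 8.04 to 9.07 in WT arrays (0.42 ± 0.26, adjusted p = 0.962). Without KO 25, 12 of the 15 were positive with a median of 0.286, and without the high-Gapdh arrays 7 with a median of -0.003.

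Among 23 neuropeptide and granin genes, Pdyn alone rose, and 16 were positive (median 0.079). Cartpt, the gene of the CART peptide, had the largest mean difference of the list and the widest spread: it read 6.12, 7.96, 9.15, 8.84 and 9.36 in KO arrays, against 5.29, 6.86, 6.46, 5.55 and 6.23 in WT arrays. Only KO 25 lay within the WT range, and the difference of 2.21 ± 0.65 had an adjusted p of 0.316. Scg2, secretogranin II, gave 0.71 ± 0.18 (adjusted p = 0.175), and Chgb, chromogranin B, 0.41 ± 0.16 (adjusted p = 0.646). Without KO 25, Cartpt (2.75, adjusted p = 0.0448) and Scg2 (0.88, adjusted p = 0.0141) rose as well. Penk, the enkephalin precursor of indirect pathway cells (0.09 ± 0.11), and Tac1, the substance P precursor of direct pathway cells (0.21 ± 0.13), did not pass.

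Apart from Pdyn, no identity gene of the projection neurons passed. Of 9 direct pathway genes 4 were positive, and Pdyn was the only one past the threshold: Drd1 read 11.26 to 11.70 in KO arrays and 11.40 to 11.83 in WT arrays (-0.14 ± 0.12). Of 9 indirect pathway genes 2 were positive (median -0.106), with none past it. Grik3, a kainate receptor subunit (-0.33 ± 0.11, adjusted p = 0.43), and Upb1 (-0.41 ± 0.14, adjusted p = 0.479) had the smallest p, and Drd2 differed by -0.16 ± 0.17. Of 24 genes shared by both classes 8 were positive (median -0.095), and none passed. Rgs9, the striatal RGS protein, gave -0.35 ± 0.16 (adjusted p = 0.83).

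In the lists of channels and transmitter receptors, Kcns2 was the one gene past the threshold. Of 27 potassium channel genes 11 were positive, and the median was -0.004. Kcnh3, another voltage-gated channel, gave -0.51 ± 0.12 (adjusted p = 0.107), and -0.61 without KO 25 (adjusted p = 0.0129). None of 23 glutamate and GABA-A receptor subunits passed (9 positive; Gabra5 0.75 ± 0.27, adjusted p = 0.57), and none of 9 genes of GABA synthesis, transport and breakdown did, where Abat, the GABA transaminase, did not overlap between groups (0.29 ± 0.07, adjusted p = 0.151). Of 12 activin and follistatin genes Fst fell, and 2 were positive (median -0.151). Fstl5 (-0.49 ± 0.16) and Fstl1 (-0.28 ± 0.10) had unadjusted p under 0.05 with adjusted p of 0.479 and 0.504.

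In the lists of stress, clock and metabolism no member passed. Heat shock and chaperone genes had a positive difference in 19 of 20 (median 0.10). Hspb1 had the smallest p (0.27 ± 0.09, adjusted p = 0.48), and Hspa1b, a near-identical copy of Hspa1a whose probes may not tell them apart, the largest difference (0.79, with an SD of 1.13 over the KO arrays). KO 29 held their highest level (10.12, with 9.73 to 9.85 in the other KO arrays and 9.64 to 9.84 in WT arrays), and without the high-Gapdh arrays 14 of 20 were positive with a median of 0.011. Nuclear genes of oxidative phosphorylation were positive in 52 of 72 (median 0.04), and cytosolic ribosomal protein genes in 8 of 35 (median -0.062). Clock genes were positive in 11 of 17, glucocorticoid-responsive genes in 8 of 14, cholesterol synthesis enzymes in 8 of 16, and the CREB family in 6 of 12. In the CREB family Crem was the one gene with an unadjusted p under 0.05 in the positive direction. Crtc1 was the one in the negative direction (-0.23 ± 0.09, adjusted p = 0.684).

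Markers of other cell types did not pass in any list. All 11 astrocyte markers were negative (median -0.123; Gja1, a gap junction protein, -0.32 ± 0.11, adjusted p = 0.50), and so were 12 of 13 oligodendrocyte markers (median -0.113). Astrocyte levels were 10.55 to 10.79 in KO arrays and 10.65 to 10.90 in WT arrays. Choroid plexus and ependymal markers were positive in 9 of 11 (median 0.473), with levels from 5.53 to 9.46 in KO arrays and 6.04 to 8.31 in WT arrays, and without the high-Gapdh arrays in 1 of 11 (median -0.272). Cortical glutamatergic markers were positive in 8 of 13 and ran from 8.53 to 8.81 in KO arrays and 7.68 to 9.07 in WT arrays. Their member with the smallest p, Camk2n1, was lower in KO (-0.24 ± 0.06, adjusted p = 0.122). Its KO and WT means were 13.34 and 13.59 in striatum and 13.03 and 13.13 in hippocampus. It thus did not mark tissue from outside the striatum, though it entered the cortical level. Vascular markers were positive in 10 of 11 (median 0.164), microglial markers in 4 of 11, thalamic markers in 2 of 10, collagen and fibroblast genes in 5 of 15, and interneuron genes in 8 of 13. With the cortical or the choroid plexus level as a covariate, 25 and 23 of the 25 genes passed.

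Further lists moved when arrays were left out. Without KO 25 the median was 0.073 for vascular markers, 0.247 for choroid plexus markers (9 of 11 positive), 0.095 for the other phosphodiesterases (9 of 17 positive), 0.104 for interneuron genes (9 of 13) and -0.067 for thalamic markers (4 of 10). It was -0.131 for collagen and fibroblast genes (3 of 15 positive) and -0.123 for the genes shared by both projection neuron classes (4 of 24). Microglial markers were positive in 2 of 11 without KO 25 and in 8 without the high-Gapdh arrays, and potassium channel genes in 15 and 9 of 27. Oxidative phosphorylation genes were positive in 42 of 72 without KO 25 and in 59 without the high-Gapdh arrays. Without the high-Gapdh arrays the median was 0.091 for the other phosphodiesterases (13 of 17 positive), -0.083 for activin and follistatin genes (3 of 12), -0.012 for the shared projection neuron genes (9 of 24), 0.059 for RGS proteins (11 of 16) and -0.215 for thalamic markers (2 of 10). Over all genes the median was -0.003 without KO 25 and 0.004 without the high-Gapdh arrays.

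In hippocampus, where PDE10A is scarce, the same contrast called no gene with limma (754 genes, 4.14%, had an unadjusted p under 0.05). Of the hippocampal KO vehicle arrays in it, KO 25 and KO 26 were among those that stood apart on chromosome 17. The contrast within hippocampus was not refitted without them. The smallest hippocampal adjusted p among the 25 striatal calls was 0.832, for Zfp40 (-0.57 ± 0.15). The difference between the regions was then tested directly. It passed for 9 genes (0.0495% of 18193), all of them among the 25: Pdyn, Slc7a8, Fam43a, Chmp1b and Dusp14 were more positive in striatum, and Ptprv, Fst, Cgref1 and Gask1b more negative. The same striatal arrays entered both tests, so the overlap is not independent. Some of the 9 were dim in hippocampus, where array medians were 6.05 to 6.12. Means in KO and WT there were 4.53 and 4.38 for Gask1b, 5.38 and 5.08 for Fst, 6.0 and 5.93 for Pdyn, and 6.27 and 6.18 for Ptprv. The others were brighter. Whether low signal limited the hippocampal differences was not tested. For Pdyn the KO minus WT difference was 1.39 in striatum and 0.06 in hippocampus, so that the regions differed by 1.32 ± 0.22 (adjusted p = 0.0135). Dusp14 (0.81 in striatum, -0.24 in hippocampus) and Fst (-0.52 in striatum, 0.30 in hippocampus) had opposite signs in the 2 regions (adjusted p = 0.0462 and 0.0285). Without the 8 arrays of either region that stand apart on chromosome 17, 34 genes passed, 5 of the 9 among them, while Gask1b (adjusted p = 0.0509), Ptprv (0.0509), Cgref1 (0.0598) and Dusp14 (0.0932) did not. For Nnat (0.70 ± 0.25, adjusted p = 0.794), Zfp40 (-0.19 ± 0.22, adjusted p = 0.96) and Zfpm1 (-0.10 ± 0.15, adjusted p = 0.97) the difference between regions did not pass.

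**Figure D5:**
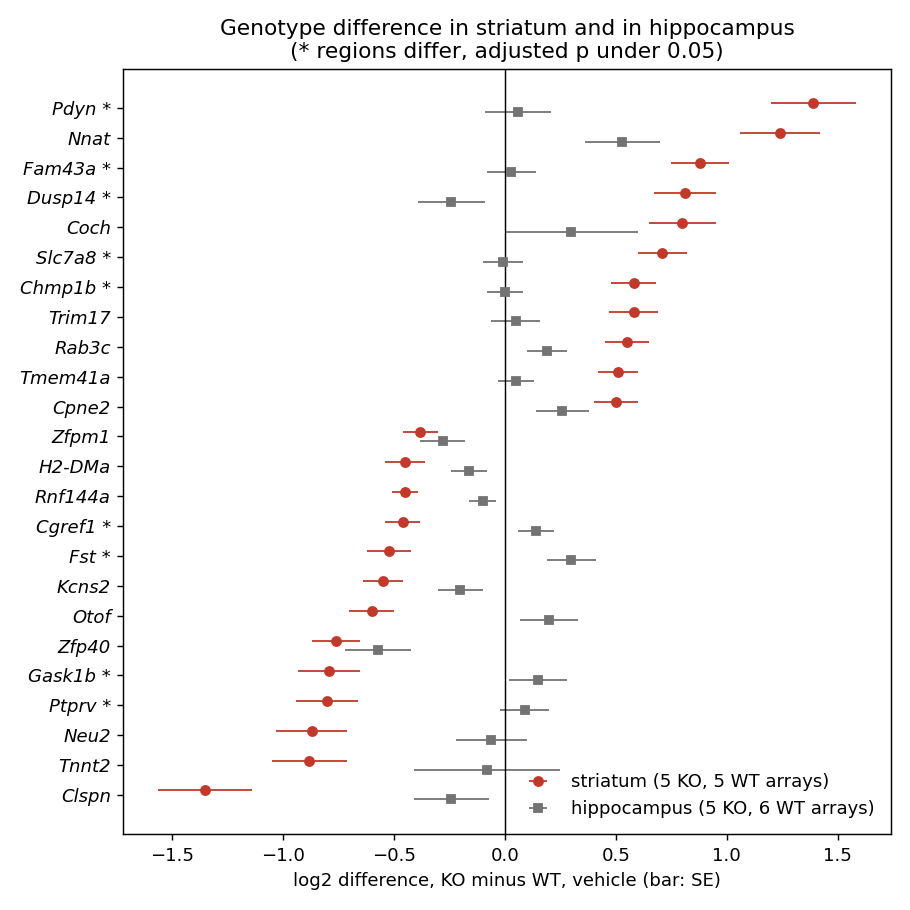
Log2 difference, KO minus WT, of the 24 named genes in striatum (circles) and hippocampus (squares), with SE bars; a star marks the 9 genes whose difference between regions passed an adjusted p of 0.05. Most squares lie near 0, with Zfp40 and Nnat farthest from it. Of all 25 called genes, 8 of the 11 rises were positive in hippocampus and 9 of the 14 falls negative, Nnat and Zfp40 among them.

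How many genes passed depended on single arrays. Without the array labelled KO 25, 82 genes (0.451%) passed, including 24 of the 25 (Zfpm1 did not, adjusted p = 0.0602), and 15 of the 82 were on chromosome 17, against 2 of the 25. That chromosome holds 834 (4.58%) of the genes tested. KO 25 had been singled out by its WT-like score on chromosome 17, so leaving it out favours calls there. The count on that chromosome is therefore no separate evidence. Without any other single array, 8 (WT 4) to 20 (WT 5) genes passed. Pdyn, Nnat, Fam43a, Slc7a8, Clspn, Zfp40 and Rnf144a passed in all 10 of these fits, and Otof in 9. These fits still shared their spread with the inhibitor arrays. In the limma fit on the KO and WT vehicle striatum arrays alone, 9 genes passed. Pdyn, Slc7a8, Clspn, Zfp40 and Rnf144a were among them (each adjusted p = 0.0474), while Nnat, Fam43a and Otof did not pass. With the highest-Gapdh array of every striatal group left out, KO 29 and WT 4 among them, no gene passed in limma. There 1160 had an unadjusted p under 0.05, and the lowest adjusted p was 0.0555. The direction of the 25 could not change, since the KO and WT arrays of each did not overlap.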

How the data were processed

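Per the submitters' processing notes, the authors made the deposited log2 expression values with RMA, a method that corrects background, gives every array the same distribution of values and combines each set's probes into a log2 signal. Differences in the amount of RNA are thereby lost. The sources used here do not say whether the arrays went through it together. Array medians lay between 6.05 and 6.12. Of 45101 probe sets, 64 controls, 932 with several listed genes and 9160 with none were not used as genes, and 34945 had 1 gene, 34741 of them matched to RefSeq's gene table. Each of the 18193 genes was tested through its brightest probe set on average over the study's arrays.

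Differences were fitted with limma 3.58.1 (R 4.3.3), with moderated two-sided tests, p-values adjusted by Benjamini and Hochberg's method over the 18193 genes, and a threshold of 0.05. The fit held all 20 striatal arrays in 4 groups, so the spread is shared with the inhibitor groups. The difference between regions used all 42 arrays in 8 groups. Scripts were tested on simulated data. The number of arrays limits the precision.

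Named were Pde10a, every called gene up to 15 in each direction (predicted and clone names only counted) and the 6 genes just outside the threshold. In each of 31 gene lists the called members were named or, where none was called, at most 4 members, by p. Drd1, Drd2, Penk, Tac1, Egr3, Hspa1b, Dusp6, Cartpt, Scg2, Chgb, Kcnh3, Fstl5 and Fstl1 were named outside this rule, with their values known. Of 606 list entries 552 were found among the tested genes, and the others were not analysed here. The members and lists were chosen with earlier results of these data known. Alternatives left out each array, the high-Gapdh arrays or those standing apart on chromosome 17, added covariates or array weights, or changed the normalization, the filter or the probe set used. Same-numbered striatal and hippocampal arrays did not deviate together over all genes (correlations from -0.382 to 0.305), so numbers were not taken to pair them. Uneven dissection may enter these correlations, so they cannot show whether a number marks an animal. On chromosome 17, KO vehicle 25 and WT inhibitor 14 stood apart in both regions. KO vehicle 26 and WT inhibitor 12 did so in hippocampus alone, and WT inhibitor 13 and 15 in striatum alone.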

Additional observations from a re-analysis of the deposited data

Results flagged for a closer look

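The 136 sets of 5 array values examined were of the genes named by the rule, the Gapdh difference and the chromosome 17 score, in either group. Of these, 7 held 1 array far from the others by Dixon's criterion, where chance gives about 1 in 20. The array labelled KO 25 was that array in 4. It read 7.49 for Zfp40, with 6.89 to 6.99 in the other KO arrays. For Kcns2 it read 8.97, with 8.42 to 8.57 in the others. For Ppp1r2 it read 12.54, with 11.84 to 11.98, and for Dcn, a matrix proteoglycan, 6.64, with 6.84 to 6.90. KO 29 read 7.11 for Pdk4, an inhibitor of pyruvate dehydrogenase, with 6.55 to 6.65 in the other KO arrays. WT 1 read 9.42 for Tmem41a, with 9.30 to 9.32 in the other WT arrays. WT 4 had a Gapdh difference of 1.05, with 0.18 to 0.28 in the other WT arrays. The Gapdh difference of KO 29 and the chromosome 17 score of KO 25 did not meet the criterion. Genes named outside the rule were not examined, among them Dusp6, with 7.92 in KO 25 and 9.13 to 9.41 in the other KO arrays.

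The KO minus WT difference differed between striatum and hippocampus in 9 genes by the test of that difference. Striatum minus hippocampus came to 1.32 for Pdyn (1.39 and 0.06), 0.72 for Slc7a8 (0.71 and -0.01), 0.85 for Fam43a (0.88 and 0.03), 0.58 for Chmp1b, 1.04 for Dusp14 (0.81 and -0.24), -0.94 for Gask1b (-0.79 and 0.15), -0.83 for Fst (-0.52 and 0.30), -0.61 for Cgref1 (-0.46 and 0.14) and -0.89 for Ptprv (-0.80 and 0.09), where the values in brackets are the striatal and the hippocampal difference. Gask1b, Ptprv, Cgref1 and Dusp14 did not pass without the 8 arrays standing apart on chromosome 17.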

How the results depend on the processing

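The count of 25 genes changed most with the arrays used. Leaving out each array in turn gave 8 to 82 genes (82 without KO 25, 8 without WT 4), the fit on the KO and WT vehicle striatum arrays alone 9, array weights 87, the fit without the 4 striatal arrays standing apart on chromosome 17 145, and the fit without the high-Gapdh arrays 0. Another probe set rule, quantile normalization again, no dim genes, a trended variance or the Gapdh, cortical or (added after seeing the data) choroid plexus covariate gave 23 to 34. Genes with non-overlapping arrays numbered 225 with all arrays and 313 to 620 with 1 left out, where fewer arrays make non-overlap easier. Over the genes named by the rule, 1220 alternative values kept direction and side of the threshold. A further 173 no longer passed, 38 newly passed and 5 changed sign, all 5 for Pde10a (0.029). These were -0.005 with the choroid plexus covariate, and -0.060, -0.003, -0.013 and -0.036 without KO 29, WT 1, WT 2 and WT 5. The range for Pde10a over left-out arrays was -0.060 to 0.110. The Gapdh difference of -0.129 between the groups lay between -0.212 and 0.037 with 1 array left out, 0.037 being the value without WT 4. Genes with a difference between regions numbered 9, also with the replicate number shared by both regions as a random replicate block (the same 9 genes), 34 without the 8 arrays standing apart on chromosome 17 (5 of the 9 among them), and 2 to 28 with 1 array left out. No paired analysis was possible for KO against WT because these groups share no replicate number. The causes were not tested. With 5 arrays a group the median SE was 0.0948, which sets the size of difference that could pass.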

Other observations

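Nnat is an imprinted gene, and a list of other imprinted genes was written after its value had been seen, so it is given as values with no test. Of 38 imprinted genes tested, 28 had a positive difference, KO minus WT, against 49.4% of all genes, and 9 had an unadjusted p under 0.05 in that direction and none in the other (2.85% and 3.09% of all genes). The 23 expressed from the paternal allele had a median difference of 0.16, with 17 positive, and the 15 expressed from the maternal allele 0.07, with 11 positive. Nnat alone passed with all arrays, and 6 passed without the array labelled KO 25, against 0.137% and 0.451% of all genes. Among them Mest read 7.47 in KO 25 and 8.41 to 8.79 in the other KO arrays (0.87 ± 0.23 with all arrays, adjusted p = 0.209). Peg3, a zinc finger gene of the paternal allele, read 11.38 in KO 25 and 11.84 to 12.08 in the other KO arrays (0.38 ± 0.11, adjusted p = 0.319).

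Some genes that did not pass with all arrays passed when KO 25 was left out, and were picked out from the 82 calls of that fit after their values had been seen. Slc3a2, the heavy chain that pairs with the Slc7a8 product, gave 0.34 ± 0.07 (adjusted p = 0.036), and also passed with array weights, with quantile normalization again and without genes of low level. Agtr1a, a receptor of angiotensin, gave 1.43 ± 0.28 (adjusted p = 0.023), and Gpr101, an orphan receptor, 1.86 ± 0.32 (adjusted p = 0.00969). Ntrk2, the receptor of BDNF, gave 0.55 ± 0.10 (adjusted p = 0.0134). Acvr1c, a receptor of the activin and nodal family, gave -1.54 ± 0.25 (adjusted p = 0.00785), and Rps6ka5, a kinase that phosphorylates CREB and histone H3, -0.87 ± 0.12 (adjusted p = 0.00239), which also passed with array weights.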
